A study of Mus musculus with 16 samples.

Results

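The formyl peptide receptor genes of the mouse were followed in the vomeronasal organ (VNO), the sensory organ at the base of the nasal septum that detects pheromones and related cues. Members were all genes in the count and RPKM tables (RPKM are reads scaled by gene length and library size) whose symbol starts with Fpr, and 6 of the 24407 genes with counts met this rule: Fpr1, Fpr2, Fpr3, Fpr-rs3, Fpr-rs4 and Fpr-rs6. Fpr-rs7 is in the genome annotation but not in the count and RPKM tables, so only its sequence was compared here. Fpr1 and Fpr2, known from white blood cells, were taken as the immune-type members, and the other 4 as the vomeronasal members.

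Formyl peptide receptors are 7-transmembrane receptors that couple to inhibitory G proteins. On neutrophils and macrophages, Fpr1 and Fpr2 bind formylated peptides released by bacteria and damaged mitochondria and guide the cells towards them. In rodents the family has expanded, and the vomeronasal members are known as chemoreceptors of vomeronasal sensory neurons, Fpr3 in the basal neurons that use the G protein Gnao1 and Fpr-rs3, Fpr-rs4 and Fpr-rs6 in the apical neurons that use Gnai2.

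The study compared mice of 4 High Runner (HR) lines, bred for voluntary wheel running, with mice of 4 Control lines, in which parents were picked at random. All lines were derived from the outbred Hsd:ICR stock, and animals of generation 88 were sampled at 12 weeks of age. Each of the 16 libraries held VNO RNA pooled from 3 mice of 1 sex and 1 line, so HR lines 3, 6, 7 and 8 and Control lines 1, 2, 4 and 5 had 1 male and 1 female library each. No mouse received a drug or carried an engineered allele. Each pool hides the spread among its mice, and the line is the unit of selection, so n is 4 lines per linetype.

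Counts on genes ranged from 15998552 to 70875276 per library, with a median of 37366329. Omp, a marker of mature sensory neurons, was at 1267 to 2596 CPM (counts scaled to library size), while Trpc2, the transduction channel of vomeronasal neurons, was listed at 0 counts in all 16 libraries, so a 0 in these tables does not show that a gene is silent. The 4 apical neuron markers (Gnai2, Meis2, Nrp2 and Pde4a) summed to 1134 to 2159 CPM in Control and 1293 to 1948 CPM in HR libraries. The 3 basal markers (Gnao1, Tfap2e and Robo2) summed to 540.1 to 722.5 CPM and 539.6 to 778.2 CPM, respectively. None of these 7 genes had an adjusted p under 0.05 between linetypes, against 0.0242% of all genes tested. Their log2 fold changes ran from -0.07 to 0.09.

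The 6 genes lie on chromosome 17 of GRCm38. In the RefSeq annotation Fpr1 is at chr17:17876471-17883939 on the minus strand, and Fpr2 (chr17:17887824-17893952), Fpr3 (chr17:17970458-17971677) and Fpr-rs4 (chr17:18021733-18022704) follow on the plus strand. Fpr-rs6 (chr17:20182078-20183097) and Fpr-rs3 (chr17:20623846-20624877) lie on the minus strand, with genes of the V2R family of vomeronasal receptors (Vmn2r) between them and Fpr-rs4. The GENCODE model of Fpr3 begins in the first exon of Fpr2, so reads there cannot be given to 1 of the genes. The coding sequences are close enough that reads of 75 nucleotides decide which member is counted, and the first 60 coding bases are printed for that reason, with capitals for bases that differ from Fpr-rs3 at the same position:
Fpr1: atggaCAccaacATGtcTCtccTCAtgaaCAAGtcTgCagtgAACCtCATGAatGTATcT
Fpr2: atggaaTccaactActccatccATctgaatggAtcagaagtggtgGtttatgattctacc
Fpr3: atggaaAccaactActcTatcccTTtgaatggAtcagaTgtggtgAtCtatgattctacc
Fpr-rs4: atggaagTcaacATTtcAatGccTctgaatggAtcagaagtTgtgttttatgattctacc
Fpr-rs6: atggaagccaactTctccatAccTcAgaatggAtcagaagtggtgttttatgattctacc
Fpr-rs7: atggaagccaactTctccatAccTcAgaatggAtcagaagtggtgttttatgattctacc
Fpr-rs3: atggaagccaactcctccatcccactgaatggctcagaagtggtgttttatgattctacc

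These stretches are exonic and begin at the start codon. Fpr-rs6 differed from Fpr-rs3 at 5 of the 60 positions, Fpr2 at 6, Fpr3 and Fpr-rs4 at 9 each and Fpr1 at 30. Fpr-rs7 had the same 60 bases as Fpr-rs6. Over the whole coding sequence Fpr2 and Fpr3 were 88.1% identical, whereas Fpr3 and the 3 Fpr-rs members in the tables were 69.2 to 72.9% identical. By sequence, therefore, the vomeronasal member Fpr3 was nearer to the immune-type member Fpr2 than to the other vomeronasal members. Fpr-rs3, Fpr-rs4 and Fpr-rs6 were 78.9 to 82.3% identical to one another, and Fpr1 was 59.8 to 66.5% identical to the other 5.

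Reads that mapped to more than 1 place were dropped by the authors, which lowers the counts of members with close copies. Of all 75-base words in the GENCODE transcripts of a gene, 100% were found in no other gene for Fpr1, Fpr-rs3 and Fpr-rs4, 98.3% for Fpr3, 87.8% for Fpr-rs6 and 79.1% for Fpr2. Fpr-rs6 shared 115 words with Fpr-rs7, to which its coding sequence was 96.7% identical. Fpr2 shared 259 words with the pseudogene Gm5966 and 20 with Fpr3. Values of Fpr-rs6 and Fpr2 are uncertain to that extent.

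Levels per length were compared first, in RPKM averaged over both libraries of each line. Fpr-rs3, Fpr-rs6 and Fpr3 were above both immune-type members in all 8 lines, and Fpr-rs4 was so in the HR lines and in Control line 2. Fpr-rs3 was the highest of the family, with 36.0 ± 6.63 RPKM (SD, n = 4 lines) in Control and 35.9 ± 2.43 RPKM in HR lines. Fpr-rs6 had 9.47 ± 7.45 RPKM in Control and 14.4 ± 2.40 RPKM in HR lines. Fpr3 had 4.90 ± 5.24 RPKM in Control and 13.6 ± 1.61 RPKM in HR lines.

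Fpr-rs4 was the lowest vomeronasal member, with 0.684 ± 1.25 RPKM in Control and 2.88 ± 0.557 RPKM in HR lines. Fpr2 had 0.306 ± 0.127 RPKM and 0.275 ± 0.169 RPKM, and Fpr1 had 0.168 ± 0.0578 RPKM and 0.212 ± 0.0793 RPKM, in Control and HR lines. The SD of the 3 lower vomeronasal members was close to or above their mean in Control lines and well below it in HR lines.

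**Figure D1:**
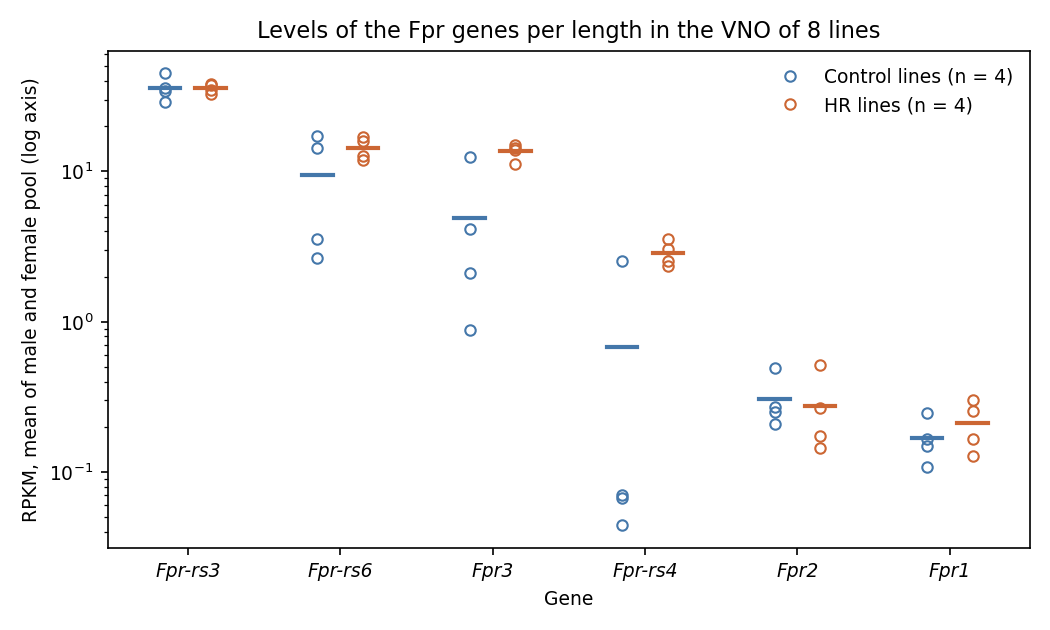
RPKM of the 6 Fpr genes on a log axis, with 1 circle for each line (mean of its male and female library) and a bar for the mean of 4 Control (blue) or 4 HR (orange) lines. Fpr-rs3 lay between 29.0 and 44.9 RPKM in all lines, while Fpr-rs4 ran from 0.0443 to 3.57 RPKM and Fpr1 and Fpr2 stayed at or below 0.516 RPKM.

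The order by mean over the 8 lines was Fpr-rs3, Fpr-rs6, Fpr3, Fpr-rs4, Fpr2 and Fpr1. Fpr-rs3 was above Fpr-rs6, and Fpr3 above Fpr-rs4, in 8 of 8 lines. Fpr-rs6 was above Fpr3 in 5 of 8 lines, 2 of them HR lines, so these neighbours did not differ beyond their spread. Fpr2 was above Fpr1 in 6 of 8 lines.

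Fpr-rs4 was above Fpr2 in all 4 HR lines but in only 1 Control line, line 2. In Control lines 1, 4 and 5 the vomeronasal Fpr-rs4 thus had less signal per length than either immune-type member. The summed RPKM of the 4 vomeronasal members exceeded that of Fpr1 and Fpr2 by 48.5 to 164-fold in Control and 83.3 to 224-fold in HR lines. These ratios rest on few reads for the immune-type members, with 1 to 19 counts of Fpr1 and 1 to 23 counts of Fpr2 per library.

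The vomeronasal sum itself was 51.0 ± 12.02 RPKM in Control and 66.8 ± 2.01 RPKM in HR lines, with Control lines between 35.8 and 65.2 RPKM and HR lines between 64.2 and 68.9 RPKM. Fpr-rs3 made up 72.4% ± 15.3 of this sum in Control and 53.8% ± 3.14 in HR lines. Fpr3 made up 9.14% ± 7.89 and 20.4% ± 1.93, respectively. The mix of vomeronasal members was therefore more alike among HR lines than among Control lines. In Control line 2, Fpr-rs3 made up 54.8% and Fpr3 19.2%, inside or beside the HR ranges of 50.8 to 56.7% and 17.6 to 22.1%, whereas in Control line 1 they made up 88.7% and 4.17%.

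Levels per library are given in CPM after TMM scaling, which compares libraries but not genes of unequal length. Fpr3, known from basal neurons, was at 2.22, 12.004, 1.21 and 6.22 CPM in males and 2.29, 14.9, 0.633 and 2.87 CPM in females of Control lines 1, 2, 4 and 5. In HR lines 3, 6, 7 and 8 it was at 13.7, 17.7, 16.7 and 16.1 CPM in males and 10.4, 14.7, 13.7 and 15.6 CPM in females. Control lines 1, 4 and 5 lay below every HR library, while the values of Control line 2 fell inside the HR range of 10.4 to 17.7 CPM. The linetypes overlapped through line 2 alone.

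Fpr-rs4, a receptor of apical neurons, was at 0.0567, 2.31, 0.0526 and 0 CPM in males and 0.0555, 2.01, 0.101 and 0.0638 CPM in females of Control lines 1, 2, 4 and 5. In HR lines 3, 6, 7 and 8 it was at 3.07, 2.45, 2.29 and 2.82 CPM in males and 2.09, 1.76, 2.30 and 3.42 CPM in females. These values came from 0 to 4 counts in the libraries of Control lines 1, 4 and 5, 39 and 124 counts in those of Control line 2, and 57 to 130 counts in the HR libraries. The 0 counts in the male library of line 5 allow up to 0.104 CPM (3 counts), which covers counting error only. As for Fpr3, Control line 2 was at the level of the HR lines in both sexes and the other 3 Control lines were below all HR libraries.

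Fpr-rs6, also known from apical neurons, divided the Control lines in another way. It was at 3.24, 15.1, 14.7 and 2.17 CPM in males and 2.47, 10.7, 16.1 and 2.36 CPM in females of Control lines 1, 2, 4 and 5. In HR lines 3, 6, 7 and 8 it was at 11.4, 9.55, 11.1 and 16.1 CPM in males and 18.7, 12.035, 11.8 and 12.7 CPM in females. Control lines 1 and 5 were low, and Control lines 2 and 4 lay at the level of the HR lines. Line 4 was thus low for Fpr3 and Fpr-rs4 and high for Fpr-rs6.

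Fpr-rs3, the leading member, did not follow the linetypes. It was at 42.2, 32.7, 28.2 and 30.0 CPM in males and 37.5, 30.6, 31.8 and 22.6 CPM in females of Control lines 1, 2, 4 and 5. In HR lines 3, 6, 7 and 8 it was at 33.7, 35.7, 33.8 and 27.6 CPM in males and 25.6, 31.6, 32.6 and 34.0 CPM in females. The highest and the lowest library were both Control libraries. Over the 8 line means the SD was 12.4% of the mean for Fpr-rs3, against 49.3% for Fpr-rs6, 63.8% for Fpr3 and 82.4% for Fpr-rs4.

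**Figure D2:**
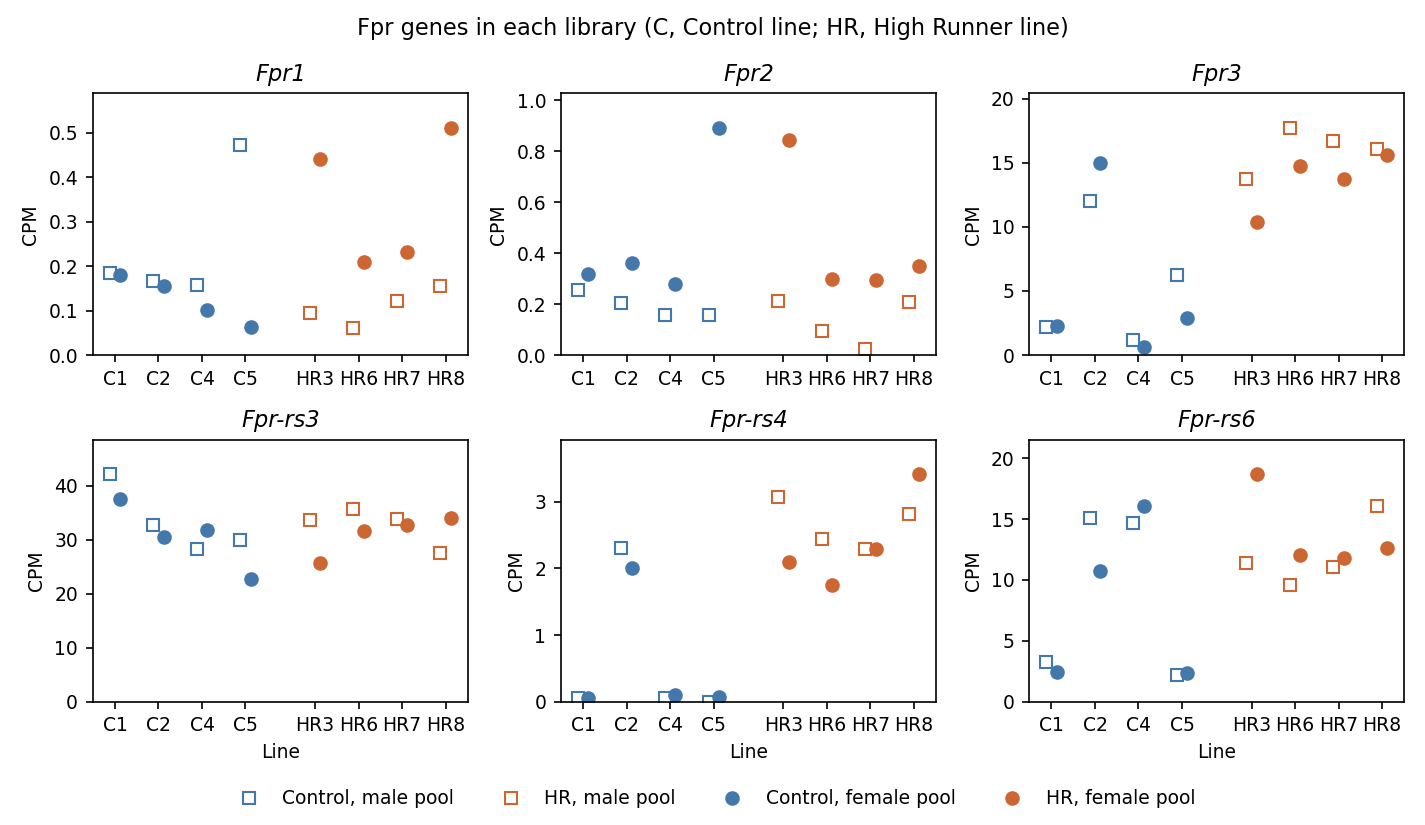
CPM of each Fpr gene in the 16 libraries, by line, with squares for male and filled circles for female pools, blue for Control and orange for HR lines. Control lines 1, 4 and 5 sit at or below 6.22 CPM for Fpr3 and 0.101 CPM for Fpr-rs4, Control line 2 sits among the HR lines, and for Fpr-rs6 Control line 4 does so too.

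Fpr1 and Fpr2 were below 1 CPM in all 16 libraries. Fpr1 was at 0.184, 0.168, 0.158 and 0.473 CPM in males and 0.180, 0.155, 0.101 and 0.0638 CPM in females of Control lines 1, 2, 4 and 5. In HR lines 3, 6, 7 and 8 it was at 0.0946, 0.0620, 0.122 and 0.155 CPM in males and 0.441, 0.209, 0.232 and 0.511 CPM in females. The linetypes overlapped, and Fpr1 was the member that did not pass the filter on low counts.

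Fpr2 was at 0.255, 0.205, 0.158 and 0.158 CPM in males and 0.319, 0.361, 0.278 and 0.893 CPM in females of Control lines 1, 2, 4 and 5. In HR lines 3, 6, 7 and 8 it was at 0.213, 0.0930, 0.0243 and 0.207 CPM in males and 0.845, 0.298, 0.295 and 0.350 CPM in females. The male values lay at or below 0.255 CPM and the female values at or above 0.278 CPM, from 1 to 23 counts per library. The share of all genes whose sexes separate in this way was not determined.

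The comparison of HR with Control lines asks whether breeding for wheel running went with a change in receptor expression. Of the 6 members, 5 passed the filter and 0 had an adjusted p (Benjamini-Hochberg) under 0.05 by the quasi-likelihood test of edgeR, whereas 0.0242% of all 16507 genes tested (4 genes) did. At an unadjusted p under 0.05 there were 2 members, Fpr3 and Fpr-rs4, against 3.3% of all genes (545). That fit counts both libraries of a line as replicates. With counts summed per line, so that the line was the replicate, 0 members had an unadjusted p under 0.05 in edgeR, against 207 of 17104 genes. DESeq2 called 0 members but gave no p for Fpr-rs4. Limma-voom with a random effect for line called 0 members, and 3 had an unadjusted p under 0.05, against 262 of 16507 genes.

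The estimates were a log2 fold change of 1.50 (SE 0.52) for Fpr3 and 2.15 (SE 0.82) for Fpr-rs4, HR over Control, each with an adjusted p of 0.9997 in edgeR's quasi-likelihood test. For Fpr-rs6 the edgeR estimate was 0.62 (SE 0.44), for Fpr2 -0.24 (SE 0.38) and for Fpr-rs3 -0.0071 (SE 0.11), with the same adjusted p. The median log2 fold change was 0.62 over these 5 members and 0.0025 over all genes tested. Without the filter, Fpr1 had a log2 fold change of 0.14 (SE 0.46). The fold changes of Fpr3 and Fpr-rs4 ranked 60th and 20th in absolute size among the genes tested.

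The size of these errors depended on Control line 2. Without it, the log2 fold change was 5.40 (SE 0.33) for Fpr-rs4 with an adjusted p of 2.24e-06, and 2.59 (SE 0.37) for Fpr3 with an adjusted p of 0.0134, in edgeR's quasi-likelihood test, in which 0.103% of all genes were called. That fit counts both libraries of a line as replicates, so its p-values overstate the evidence from 4 against 3 lines. Over line means without line 2, the exact permutation p was 0.0571 for Fpr-rs4 and for Fpr3, and this test cannot reach 0.05. No other line, when left out, gave a member with an adjusted p under 0.05 in edgeR. Line 2 has the same label as the other Control lines, and the values with all 8 lines remain the result.

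Males and females were also tested apart. Fpr3 had a log2 fold change of 1.57 (SE 0.61) in males alone and 1.42 (SE 0.78) in females alone by edgeR. Fpr-rs4 had 2.09 (SE 1.19) and 2.25 (SE 1.04). The SE exceeded the gap between the sexes for both genes.

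Since both libraries of a line share their ancestry, the lines were also compared by their mean log2 CPM, with a two-sided exact permutation test of 4 against 4 lines, whose smallest possible p is 0.0286. The difference of HR minus Control was 2.14 for Fpr3 and 3.54 for Fpr-rs4, with an exact p of 0.0571 for each. In each case 3 of 4 HR lines were above all 4 Control lines. On the log2(RPKM + 1) scale the difference was 1.72 for Fpr3 (exact p = 0.0571) and 1.42 for Fpr-rs4 (exact p = 0.0857), where 2 of 4 HR lines were above all Control lines for Fpr-rs4. For the other members the difference on the log2 CPM scale was 1.08 for Fpr-rs6 (exact p = 0.343) and 0.0078 for Fpr-rs3 (exact p = 0.971). On that scale it was 0.17 for Fpr1 (exact p = 0.486) and -0.29 for Fpr2 (exact p = 0.429). The line means of the linetypes overlapped for all 6 members, while they did not overlap for 0.8% of all genes.

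**Figure D3:**
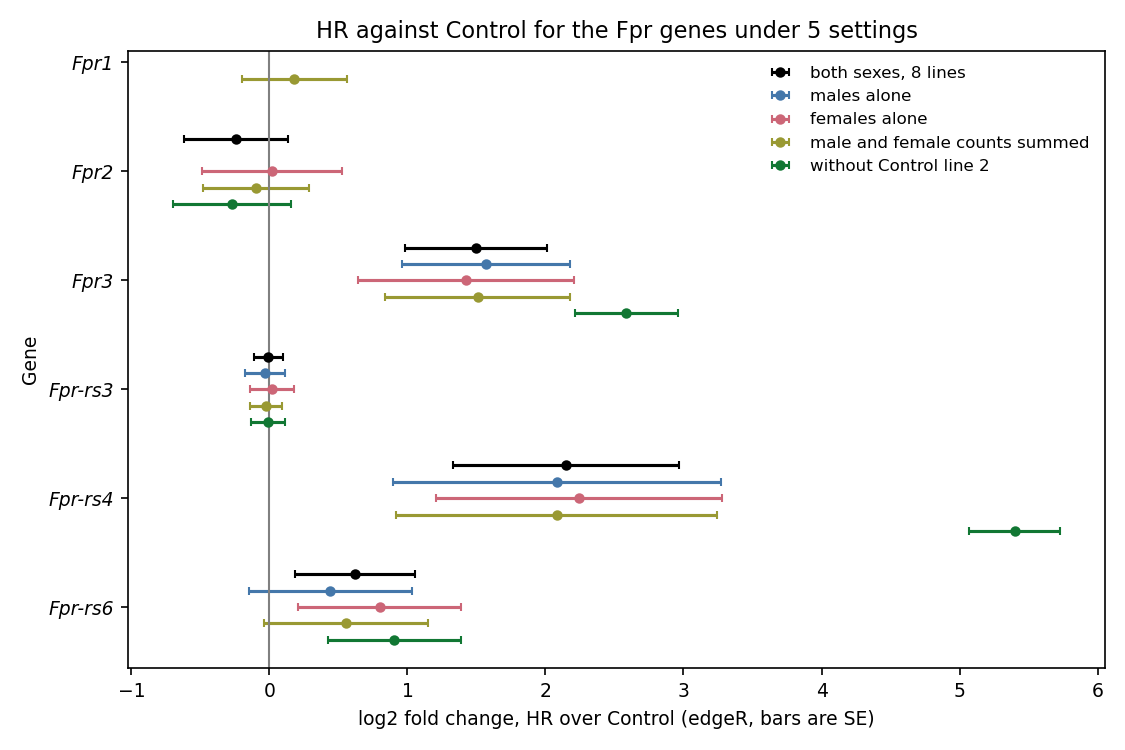
Log2 fold change of HR over Control lines for each Fpr gene by edgeR, with bars of 1 SE, for both sexes together, each sex alone, counts summed per line, and all lines but Control line 2. Fpr3 went from 1.50 to 2.59 and Fpr-rs4 from 2.15 to 5.40 without that line, and Fpr-rs3 stayed near 0. Of these settings, Fpr1 was tested only with summed counts, and Fpr2 was not tested in males alone.

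Between the sexes, Fpr2 was higher in females. It had 0.455 ± 0.257 CPM (SD, n = 8) in females and 0.164 ± 0.0745 CPM in males, and the female library was the higher in 8 of 8 lines, as it was for 2.53% of all genes tested. Within lines the difference of female minus male was 1.21 ± 0.76 on the log2 CPM scale (SD, n = 8 lines), with a two-sided exact sign-flip permutation p of 0.00781, the smallest that 8 lines can give. The 6 members were tested this way, and the other 5 had exact p-values from 0.109 for Fpr3 to 0.898 for Fpr-rs6.

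In the test across all genes, 0 of the 5 members had an adjusted p under 0.05 for sex, against 0.188% of all genes (31). At an unadjusted p under 0.05 there was 1 member, Fpr2, against 8.08% of all genes. Its log2 fold change was 1.39 (SE 0.38), female over male, with an adjusted p of 0.222 in edgeR's quasi-likelihood test. With the line as a replicate block it was 1.34 (SE 0.32), with an adjusted p of 0.0932 by edgeR, and the block raised the number of genes called from 31 to 87. DESeq2 gave a log2 fold change of 1.41 with no adjusted p, and it called 0 members. The male and the female libraries may also differ by sequencing run, which cannot be told apart from sex here.

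Some genes of neutrophils, white blood cells that carry Fpr1 and Fpr2, had higher estimates in females too. Of 13 neutrophil marker genes in the tables, 7 were tested and 4 had an unadjusted p under 0.05, all 4 higher in females, with log2 fold changes of 1.34 for the chemokine receptor Cxcr2, 1.05 for S100a9, 0.88 for S100a8 and 0.71 for the cytokine receptor Csf3r by edgeR. Mmp9 had 0.23, and Prtn3 (-0.23) and Ltf (-0.18) had lower estimates in females. None of the 7 passed the adjusted threshold for sex, which 0.188% of all genes did, and 8.08% of all genes had an unadjusted p under 0.05. The 13 genes summed to 569.3 to 5754 CPM in male and 614.7 to 6252 CPM in female libraries, nearly all of it Ltf (lactoferrin), which glands make too. Without Ltf the sum was 34.3 to 81.1 CPM (median 36.9) in males and 45.6 to 74.2 CPM (median 60.3) in females. Elane and Mpo, the granule enzymes of young neutrophils, had at most 2 and 4 counts per library. The macrophage list did not share the higher estimates in females. Of its 14 genes tested, 1 had an unadjusted p under 0.05 for sex by edgeR, Cd14 with a log2 fold change of 0.54, female over male. The median over the 14 genes was -0.01. Their sum was 131.6 to 583.1 CPM (median 253.7) in males and 161.8 to 419.0 CPM (median 200.4) in females. The part of neutrophil number in the Fpr2 difference was not tested, and in bulk tissue fewer cells of a type and less RNA per cell cannot be told apart.

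Fpr1 did not share the pattern of Fpr2. The female library was the higher in 4 of 4 HR lines, with differences of 0.71 to 1.76 on the log2 CPM scale, and in 0 of 4 Control lines, with differences of -2.20 to -0.023. The sex difference was thus higher by 1.97 in HR than in Control lines, with a two-sided exact permutation p of 0.0286, the smallest that 4 against 4 lines can give. Fpr1 was 1 of 6 members tested, and the share of all genes that separate in this way was not determined. In edgeR's interaction test with the line as a replicate block the value for Fpr1 was 2.26 (SE 0.63), with an adjusted p of 1. Its unadjusted p in that test was 0.00521, and 361 of 17181 genes had an unadjusted p under 0.05. Fpr1 rested on few reads (1 to 19 counts in a library) and did not enter the test for the interaction without the block on all 16 libraries. With Control line 1, 2 or 4 or HR line 6 or 7 left out it did enter. Its values there were 2.45 to 2.84, and 0 members were called.

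For the other 5 members the interaction of sex and linetype had exact p-values from 0.200 for Fpr-rs4 to 0.743 for Fpr-rs3. In edgeR's quasi-likelihood test of the interaction, 0 of 5 members tested had an adjusted p under 0.05, as had 0% of all genes, and DESeq2 called 0 too. At an unadjusted p under 0.05 there were 77 genes and 0 members.

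**Figure D4:**
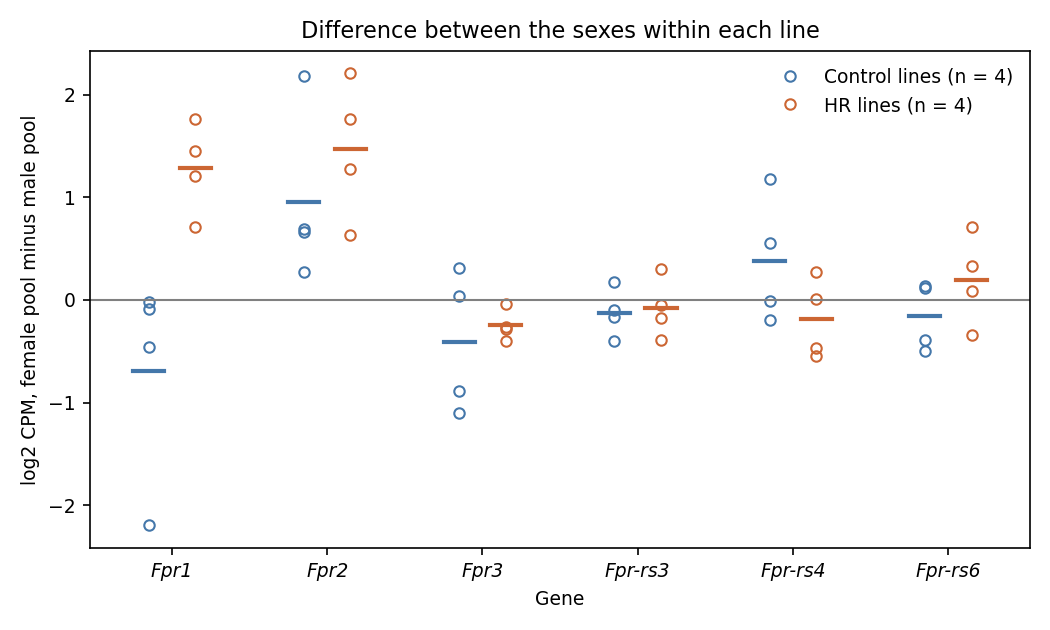
Female minus male log2 CPM for each Fpr gene, with 1 circle for each of 4 Control (blue) and 4 HR (orange) lines and a bar for their mean. All 8 lines lie above 0 for Fpr2, from 0.28 to 2.21, and for Fpr1 the 4 HR lines lie above 0 and the 4 Control lines below it.

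The likeness of other genes was measured by Pearson's r of log2 CPM over the 16 libraries, as a description, since libraries of a line share their ancestry. Among the members, r was 0.85 between Fpr3 and Fpr-rs4, 0.71 between Fpr-rs4 and Fpr-rs6 and 0.33 between Fpr3 and Fpr-rs6. Fpr-rs3 had an r between -0.12 and 0.04 with these 3 genes. The immune-type Fpr2 had an r of -0.49 to -0.13 with the 4 vomeronasal members.

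Genes most like Fpr-rs4 were the V2R pheromone receptors Vmn2r110 (r = 0.970; chr17:20567760-20596423) and Vmn2r102 (r = 0.958; chr17:19660328-19709533), followed by Zfp677 (0.861), Lgals9 (0.860) and Fpr3 (0.851). Vmn2r110 was at 3.10, 49.9, 1.43 and 2.37 CPM in Control lines 1, 2, 4 and 5 and at 34.4, 47.2, 43.4 and 53.7 CPM in HR lines 3, 6, 7 and 8. It was thus low in the same 3 Control lines as Fpr-rs4 and at the HR level in line 2. Vmn2r110 also led the list of Fpr3 (r = 0.921), ahead of A630075F10Rik (0.912), Pigs (0.878), Tubg2 (0.857) and Fpr-rs4. Of 16506 other genes, 2 reached an r of 0.9 with Fpr-rs4 and 2 with Fpr3.

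Genes most like Fpr-rs6 were Vmn2r96 (r = 0.959; chr17:18573151-18616003), 1700011H14Rik (0.958), 5830417I10Rik (0.951), 1500004A13Rik (0.950) and Vmn2r114 (0.932). Vmn2r96 was at 3.74, 54.7, 68.6 and 3.42 CPM in Control lines 1, 2, 4 and 5 and at 58.9 to 92.1 CPM in the HR lines. It shared with Fpr-rs6 the low values in Control lines 1 and 5 only. On chromosome 3, 1500004A13Rik was at 0.0558 and 0.0713 CPM in Control lines 1 and 5, and at 13.5 to 24.0 CPM in the other 6 lines. Like levels across lines therefore also joined Fpr-rs6 with genes outside chromosome 17.

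**Figure D5:**
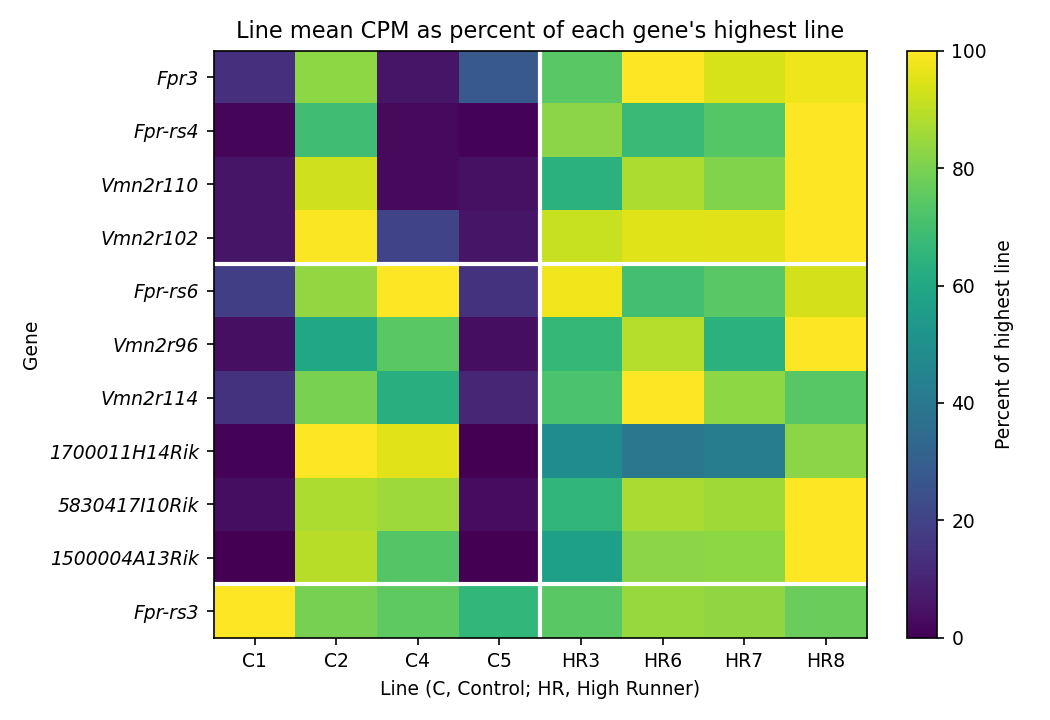
Mean CPM of each line as a percent of the gene's highest line, for Fpr3 and Fpr-rs4 with the pair of genes most like Fpr-rs4 (top), Fpr-rs6 with the 5 genes most like it (middle) and Fpr-rs3 (bottom). In Control line 4, Fpr-rs4 was at 2.47% and Fpr-rs6 at 100% of its highest line, and Fpr-rs3 was at 66.1% or more in all lines.

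Lists for the other members held no receptor genes. Fpr-rs3 was most like Samd12 (0.891), Ppp1r3e (0.884), Cpox (0.877), Gatad2b (0.873) and Dcst1 (0.873). Fpr2 was most like Ktn1 (0.901), Mmp25 (0.896), Cebpb (0.891), Trmt10a (0.872) and Dnajc21 (0.866). Mmp25, a membrane proteinase of neutrophils, and Cebpb, a transcription factor of myeloid cells, are both known from white blood cells. Ktn1, the gene with the highest r, Trmt10a and Dnajc21 were not read as markers of any cell type. None of these genes was on the neutrophil or macrophage list, and the cell source of Fpr2 was not tested.

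Neighbours within 100 kb of a member on the chromosome did not share 1 pattern. Of 8 such genes that were tested and are no members, 0 had an adjusted p under 0.05 between linetypes by edgeR and 4 had an unadjusted p under 0.05. Of all 16507 genes tested, 0.0242% and 3.3% did, respectively. The log2 fold changes of the 8 neighbours ran from -1.37 to 1.66. Next to Fpr-rs3, Vmn2r110 had a log2 fold change of 1.66 (SE 0.77) and Vmn2r109 of -1.22 (SE 0.34). Next to Fpr-rs4, Vmn2r124 had 0.30 (SE 0.14) and Vmn2r91 -1.37 (SE 0.50). Fpr-rs3, at -0.0071, lay within 100 kb of both Vmn2r110 and Vmn2r109, whose estimates had opposite signs.

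No ligand or signalling partner of the receptors passed the test between linetypes. Of all 16507 genes tested, 0.0242% passed it and 3.3% had an unadjusted p under 0.05, so 0 calls in short lists say little about them. Of 11 genes that encode or make ligands, 6 were tested and 0 had an adjusted p under 0.05 by edgeR in either direction (0 also at an unadjusted p under 0.05, and the median log2 fold change was -0.03). The list summed to 112.4 to 255.0 CPM in Control and 121.5 to 172.4 CPM in HR libraries. Anxa1, whose protein annexin A1 is a ligand of Fpr2, was its most abundant member at 81.7 to 214 CPM, with a log2 fold change of -0.26. Saa1, Saa2 and Saa3, which encode acute-phase ligands of Fpr2, had at most 5 counts per library.

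Of 21 signalling genes, which include the G protein subunits, phospholipases and the NADPH oxidase of white blood cells, 20 were tested and 0 passed the adjusted threshold in either direction by edgeR, with 0 at an unadjusted p under 0.05. Their sum was 5955 to 9835 CPM in Control and 6779 to 9120 CPM in HR libraries. Gnai2, the partner of apical receptors, was at 715.8 to 1538 CPM and Gnao1, the partner of basal receptors, at 304.7 to 510.5 CPM. These tests compare linetypes and do not describe the single Control lines in which Fpr3, Fpr-rs4 or Fpr-rs6 was low. The apical marker sum was 1134 CPM in the female library of Control line 5 and 2159 CPM in the male library of Control line 1. Fpr-rs4 and Fpr-rs6 were low in both of these lines. The part of neuron content in the low levels was not tested. White blood cell lists gave 0 calls as well. Past the adjusted threshold between linetypes were 0 of 14 macrophage genes and 0 of 7 neutrophil genes tested, with 0 at an unadjusted p under 0.05. Of all genes tested, 0.0242% and 3.3% passed these thresholds, so 0 calls are near what other short lists would give.

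The macrophage list summed to 137.9 to 401.9 CPM in Control and 131.6 to 583.1 CPM in HR libraries, while the neutrophil list without Ltf summed to 34.3 to 63.2 CPM and 35.0 to 81.1 CPM. Both immune lists overlapped between linetypes, as Fpr1 and Fpr2 did. Of 5 genes listed as markers of the main olfactory neurons, 0 passed the adjusted threshold between linetypes, against 0.0242% of all genes tested. They summed to 271.0 to 372.1 CPM in Control and 282.2 to 355.8 CPM in HR libraries. Most of that sum came from Ano2, Cnga4 and Adcy3 (medians 190.5, 70.5 and 60.6 CPM). Cnga2 had a median of 0.12 CPM and Gnal of 5.53 CPM, so the sum is not a measure of main olfactory neurons. Of 7 red blood cell genes, the 6 globin genes were listed at 0 and Alas2 was at 2.38 to 18.2 CPM.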

How the data were processed

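VNO RNA of 16 pools was depleted of ribosomal RNA and sequenced as single-end reads of 75 nucleotides, from libraries of a strand-marking kit. The authors aligned the reads to GRCm38/mm10 with STAR 2.6.1d, kept only reads without mismatch and with 1 location, and deposited raw counts per gene. A read over a base at which a line differs from the reference is therefore not counted, and whether this touches the low values of some Control lines was not tested. The deposited RPKM came from Cuffdiff of the Cufflinks package, per the authors, separately for each sex. The counting tool, annotation and strand setting are not given in the sources used here. Columns of values left out numbered 0.

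Replicates were lines. Chi-square per degree of freedom between libraries of 1 group was 32.5 to 818, so none was a copy of another. The count model was edgeR 4.0.16 in R 4.3.3 (quasi-likelihood test, TMM, filterByExpr at a minimum count of 10, terms for sex and linetype, Benjamini-Hochberg threshold 0.05), with limma 3.58.1 and DESeq2 1.42.0 as alternatives, fitted on all genes. The SE given with an edgeR estimate is the absolute log2 fold change divided by the square root of the test's F statistic. It is approximate, above all at few counts. Log2 CPM used a prior count of 2. The study's Cuffdiff needs alignments and was not used. Per-line values were tested with scipy 1.17.1 by exact permutation, with log2(RPKM + 1) and log2(RPKM + 0.1) as alternatives. With group means subtracted, both libraries of a line correlated at 0.321 to 0.708 across genes, so the line number pairs them, and the line entered the tests of sex and interaction as an alternative. In simulated data for HR against Control with 16507 genes, 200 of them changed, edgeR called 90.5% of those and 10 unchanged genes. The simulation drew each library on its own, so both libraries of a line shared no line effect, unlike the real ones. These figures therefore do not give the recovery or the false calls of the real comparison.

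Members and gene lists were chosen with earlier results of these data known. Genes named are all Fpr genes, for each tested member the 5 genes with the highest r, the lists of markers, ligands and signalling genes, and tested genes within 100 kb. Positions came from GENCODE M21 and RefSeq on GRCm38. Intervals cover counting error or the spread among lines only.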

Additional observations from a re-analysis of the deposited data

Results flagged for a closer look

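In each linetype and sex, the highest and the lowest of the 4 libraries were set against the other 3 for each of the 6 members, which made 24 groups, and chance alone flags about 1 in 20 such groups. Control line 2 stood above the other Control lines for Fpr-rs4 in females (2.01 CPM) and in males (2.31 CPM) and for Fpr3 in females (14.9 CPM). The female library of HR line 3 stood above the other HR females for Fpr-rs6 (18.7 CPM) and for Fpr2 (0.845 CPM, 23 counts). In Control line 5, the male library stood out for Fpr1 (0.473 CPM, 12 counts) and the female library for Fpr2 (0.893 CPM, 14 counts). The sex difference of Fpr1 had opposite signs in the linetypes, with a gap of 1.97 on the log2 CPM scale (exact permutation p = 0.0286, 1 of 6 members tested). Fpr1 had 1 to 19 counts per library, and the share of all genes that separate in this way was not determined.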

How the results depend on the processing

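Between linetypes, Fpr3 and Fpr-rs4 kept a positive log2 fold change in all alternatives run, from 1.14 to 2.59 and from 1.72 to 5.40 with 1 line left out. With the line as a random effect limma-voom gave 2.26 (adjusted p = 0.166) and 4.10 (adjusted p = 0.128), and with counts summed per line edgeR gave 1.51 and 2.08 (adjusted p = 0.9999 for both). DESeq2 gave 1.48 for Fpr3 (adjusted p = 0.368) and no p for Fpr-rs4. At an unadjusted p under 0.05, 2 members (Fpr3 and Fpr-rs4) were found in the fit of all libraries, against 545 of 16507 genes. With counts summed per line there were 0 members, against 207 of 17104 genes, and by limma-voom 3 members, against 262 of 16507 genes. On log2(RPKM + 0.1) the difference over line means was 2.10 for Fpr3 (exact p = 0.0571) and 3.22 for Fpr-rs4 (exact p = 0.0857). The number of members called was 0 under every alternative except without Control line 2, where it was 2 (0 to 2 with a line left out). The fit without line 2 counted both libraries of a line as replicates. Over line means without line 2, the exact permutation p was 0.0571 for both Fpr3 and Fpr-rs4.

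The number of genes called between linetypes was 4, and it was 30 by DESeq2, 0 with counts summed per line, 0 by limma-voom, 0 in males alone, 0 in females alone and 1 to 17 with a line left out. Between the sexes it was 31, and it was 19 without the filter, 182 by DESeq2, 87 with the replicate block and 13 to 25 with a line left out. The causes were not tested.

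Values near 0 changed sign. Between linetypes, Fpr-rs3 ranged from -0.089 to 0.11 with a line left out, or from -0.083 to 0.12 over line means, and was 0.018 in females alone, where Fpr2 was 0.021. For sex, leaving a line out gave -0.33 to 0.023 for Fpr-rs4 and -0.092 to 0.14 for Fpr-rs6. For the interaction it gave -0.079 to 0.14 for Fpr-rs3, -0.88 to 0.30 for Fpr-rs4 and -0.40 to 0.51 for Fpr3, and the replicate block gave -0.27 for Fpr-rs4 and 0.073 for Fpr3. The replicate block changed no call of a member. The level of Fpr2 per length was 0.149 RPKM in males alone and 0.432 RPKM in females alone, against 0.291 RPKM in both, and in males it was below the 0.160 RPKM of Fpr1.

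For Fpr2 and sex, leaving out a line gave log2 fold changes from 1.18 to 1.58. With 1 line left out, an exact test of 4 against 3 lines cannot reach a p of 0.05. Few reads limit Fpr1, Fpr2 and, in 3 Control lines, Fpr-rs4, and 4 lines per linetype limit all comparisons.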
